A study of Mus musculus with 18 samples.

Results

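Chromatin accessibility and dimethylation of histone H3 at lysine 9 (H3K9me2) were set side by side in the livers of fasted wild-type (WT) C57BL/6J mice. The comparison used 4 of the 18 samples of the series, namely 2 libraries of the assay for transposase-accessible chromatin (ATAC-seq) and 2 H3K9me2 chromatin immunoprecipitations (ChIP-seq), each called against its input. Within each assay the replicates came from separate mice, and whether the assays shared livers is not given in the sources used here. A gene was counted when a summit, the highest point of a called peak, lay within 1000 bp of any of its RefSeq transcript starts in both replicates of an assay. Of 26180 annotated genes, 1141 met this rule for ATAC-seq, 7621 for H3K9me2 and 788 for both assays, and these 788 genes are described here. The study asked how JMJD1C, an H3K9 demethylase, acts on lipogenic genes when mice are refed, and its other samples came from refed WT mice and from refed JMJD1C-LKO littermates, in which albumin promoter-driven Cre deletes Jmjd1c in liver. Mice had been kept on chow for 6 to 8 weeks, fasted overnight and, in the refed groups, given a high carbohydrate diet for 6 h. The mice compared below received no treatment other than the fast. RNA was measured only in refed livers, so every RNA level below belongs to the refed state and to other animals.

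In ATAC-seq a transposase inserts adapters where DNA is not covered by nucleosomes, so summits mark open stretches such as promoters and enhancers. H3K9me2 is deposited mainly by the methyltransferases EHMT1 and EHMT2, is removed by Jumonji demethylases such as the KDM3 family, to which JMJD1C belongs, and is best known from silent chromatin. A histone mark can only be read from nucleosomes, whereas the start of an active gene is usually cleared of them, so the signed distance of each kind of summit from the start is informative.

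The genome sequence under the summits is shown first, since the assays were found on different stretches of the same promoters. Each line holds 81 bases centred on the summit of replicate 1 in mm10 (sequence of GRCm38.p6), read 5′ to 3′ on the strand of the gene. Slc19a2, a thiamine transporter, and Pknox1, a homeodomain transcription factor, were among the genes whose summits lay farthest apart. Ldha (lactate dehydrogenase A) carried the reverse order, and Dgat2, the enzyme of the last step of triglyceride synthesis, and Map7d1 had strong summits in all 4 samples. Tas2r134, a bitter taste receptor, had an ATAC-seq summit without H3K9me2. ATAC-seq windows of Slc19a2, Pknox1, Dgat2, Map7d1 and Tas2r134 lay upstream of the start, and both windows of Ldha and the H3K9me2 windows of Slc19a2 and Pknox1 lay in introns. No window overlapped an annotated exon. Capitals mark the GC box GGGCGG bound by SP and KLF factors or the ETS site CCGGAAG, on either strand.
Slc19a2 ATAC-seq, chr1:164248632-164248712, plus strand: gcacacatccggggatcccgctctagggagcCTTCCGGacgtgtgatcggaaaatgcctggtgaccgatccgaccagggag
Slc19a2 H3K9me2, chr1:164249512-164249592, plus strand: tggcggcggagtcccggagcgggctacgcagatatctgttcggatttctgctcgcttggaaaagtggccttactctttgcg
Pknox1 ATAC-seq, chr17:31564268-31564348, plus strand: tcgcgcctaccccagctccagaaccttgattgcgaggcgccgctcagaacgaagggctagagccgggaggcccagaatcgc
Pknox1 H3K9me2, chr17:31565229-31565309, plus strand: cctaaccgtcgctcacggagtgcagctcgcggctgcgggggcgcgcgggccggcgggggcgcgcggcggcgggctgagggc
Ldha ATAC-seq, chr7:46846235-46846315, plus strand: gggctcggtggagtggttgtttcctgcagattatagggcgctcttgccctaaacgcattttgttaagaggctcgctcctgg
Ldha H3K9me2, chr7:46846124-46846204, plus strand: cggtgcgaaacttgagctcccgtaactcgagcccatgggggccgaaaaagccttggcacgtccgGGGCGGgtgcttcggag
Dgat2 ATAC-seq, chr7:99182935-99183015, minus strand: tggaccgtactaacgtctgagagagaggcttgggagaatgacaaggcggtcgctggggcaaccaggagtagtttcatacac
Map7d1 ATAC-seq, chr4:126256406-126256486, minus strand: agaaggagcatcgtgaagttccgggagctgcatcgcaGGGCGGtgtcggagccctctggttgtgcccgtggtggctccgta
Tas2r134 ATAC-seq, chr2:51626697-51626777, plus strand: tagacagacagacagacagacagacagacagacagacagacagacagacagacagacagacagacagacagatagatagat
The GC content of the Pknox1 windows was 65.4% at the ATAC-seq summit and 84% at the H3K9me2 summit. In Slc19a2 the order was the other way, with 63% and 58%. The Tas2r134 window was a run of 4-base repeats.

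The libraries of each assay differed in the number of summits. ATAC-seq gave 5220 summits in replicate 1 and 7632 in replicate 2, and H3K9me2 gave 7690 and 13456. Of the ATAC-seq summits 51.7% and 15.3% lay within 1000 bp of a start, against 92.0% and 83.5% of the H3K9me2 summits. ATAC-seq replicate 2 stood apart, because 78% of its summits were in repeat-masked sequence, against 18.9% in replicate 1 and 1.04% and 1.87% in the H3K9me2 libraries. Reads placed at several sites were dropped for ChIP-seq, which is not stated for ATAC-seq, so repeats cannot be compared between the assays. At starts, however, ATAC-seq replicate 2 was largely contained in replicate 1: the 1141 shared genes were 79.5% of its 1436 genes and 36.3% of the 3147 genes of replicate 1. The H3K9me2 lists were nested in the same way, with 99.4% of the 7668 genes of replicate 1 found among the 11177 of replicate 2. Without ATAC-seq replicate 2, genes with both numbered 2215, or 70.4% of the 3147, and without summits in repeats 778. Positions were close between replicates, and at shared genes the strongest summits lay a median of 53 bp apart in ATAC-seq and 54 bp apart in H3K9me2. Read depth is unknown from summit lists, so the lack of a summit does not show that a start was closed or unmethylated.

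Of the genes with an ATAC-seq summit at the start, the larger part also had an H3K9me2 summit there when all deposited summits were used. The 788 genes with both were 69.1% of the 1141 ATAC-seq genes (95% Wilson interval 66.3 to 71.7%) and 10.3% of the 7621 H3K9me2 genes (9.68 to 11%). With the same number of strongest summits taken from each sample (5220), the first share was 44.3%. Over all annotated genes, 4.36% had ATAC-seq in both replicates, 29.1% had H3K9me2 in both and 3.01% had both kinds in all 4 samples. These intervals cover counting error only.

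The overlap depended on which H3K9me2 library was asked. Of the 1141 ATAC-seq genes, 69.1% had H3K9me2 in replicate 1 and 96.5% in replicate 2, in which 42.7% of all genes had a summit. Of the 353 ATAC-seq genes left outside the 788, 313 had H3K9me2 in replicate 2 alone, 1 in replicate 1 alone and 39 in neither. The ATAC-seq library made little difference: H3K9me2 replicate 1 was found at 70.5% of the genes of ATAC-seq replicate 1 and at 69.7% of those of replicate 2, and H3K9me2 replicate 2 at 95.7% and 96.0%. The reverse group was larger, since 5195 genes had H3K9me2 in both replicates and ATAC-seq in neither. No summit of either kind was called in any of the 4 samples at 14809 genes.

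The share of genes with the other kind of summit was also read by quartile of summit score (-log10 q). In ATAC-seq replicate 1 the share of genes with H3K9me2 in both replicates was 71.9% in the lowest quartile of scores and 67.9% in the highest, and in replicate 2 it was 70.8% and 71.9%. The lowest share of replicate 2, 65.2% (60.1 to 69.9%), was in quartile 2, outside the range of these ends. In the H3K9me2 libraries the share with ATAC-seq in both was 10% in the lowest and 11.3% in the highest quartile of replicate 1, with 9.75% in quartile 2. In replicate 2 it ran from 8.16% to 11%. In H3K9me2 replicate 2 the intervals of the lowest (7.2 to 9.23%) and highest quartile (9.88 to 12.2%) did not overlap, and in replicate 1 they did. These intervals cover counting error within a library and treat genes as independent, although neighbouring genes share summits. The difference between quartiles was not tested.

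Genes with both were mostly expressed in the refed liver. A level of at least 1 TPM (transcripts scaled by length and library size) in both refed WT libraries was found for 87.2% of the 788 genes, 90.7% of the H3K9me2 genes, 79.2% of the ATAC-seq genes and 41.7% of all genes. The median level of the 788 genes was 11.2 and 11.5 TPM in the 2 refed libraries, and that of the 5195 genes with H3K9me2 and no ATAC-seq was 14.7 and 15.1 TPM. Among the 10908 genes with RNA, 8.29% had ATAC-seq in both replicates and 63.4% had H3K9me2 in both, and 76% of those ATAC-seq genes (73.1 to 78.7%) had H3K9me2. In H3K9me2 replicate 2 alone the values were 98.6% of the ATAC-seq genes with RNA against 87.3% of all genes with RNA. The ATAC-seq genes thus lay closer to the background within expressed genes than over all genes.

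The gap in H3K9me2 between genes with and without an ATAC-seq summit was widest at genes below 1 TPM or without an RNA value. The RNA table listed a TPM value for 15487 of the 26180 genes. In this group, 42.6% of 237 ATAC-seq genes had H3K9me2 in both replicates (36.5 to 49%), against 3.13% of the 14657 genes without ATAC-seq. Within the same group, at promoters with a CpG observed-to-expected ratio of 0.6 or over, the shares were 44.8% and 10.3%, a smaller gap. From 1 to 10 TPM the shares were 67.6% and 41.3%, and from 10 to 100 TPM 81.1% and 73.7%. At 100 TPM or over, 90.8% of 87 ATAC-seq genes (82.9 to 95.3%) and 80.7% of 898 genes without ATAC-seq (78 to 83.2%) had H3K9me2. At promoters with that CpG ratio and RNA of at least 1 TPM the order was the same, with 78.7% and 69.8%, and below that ratio 57.6% and 33.9%. A summit counts for every gene with a start within 1000 bp. Another gene started that close at 44% of the ATAC-seq genes, against 17% of all genes. Wasf1 and Kdm4d, both in the lowest RNA group, had their strongest H3K9me2 summits inside the divergent neighbours Cdc40 and Cwc15. The shares were not split by neighbour, so they do not show how often the mark lay on the gene counted. The part of neighbours, CpG content and RNA level in the overlap was not tested.

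**Figure D1:**
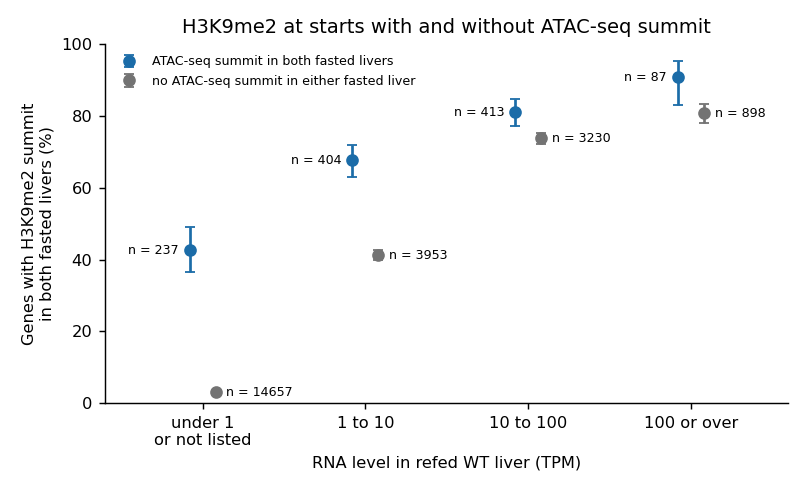
Percent of genes with an H3K9me2 summit in both fasted replicates (y axis) by RNA level in refed WT liver (x axis, TPM), for genes with ATAC-seq in both fasted replicates (blue) and in neither (grey), with 95% Wilson intervals and the number of genes. The lowest group also holds genes without an RNA value, and the gap runs from 42.6% against 3.13% there to 90.8% against 80.7% at 100 TPM or over. Summits shared with a neighbouring gene were counted for both genes.

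At the 788 genes the kinds of summit lay on opposite sides of the start. The median position of the strongest ATAC-seq summit was -135.5 bp in replicate 1 and -136 bp in replicate 2 (mean -135.8 ± 0.354 bp, SD, n = 2). The median position of the strongest H3K9me2 summit was 236 bp and 219.5 bp downstream (227.8 ± 11.7 bp, SD, n = 2). The difference of 363.5 bp exceeded the spread between replicates by far, and the samples of the assays did not overlap. A two-sided exact permutation test over the samples gave p = 0.33, the smallest value that 2 samples against 2 can give, so the design cannot reach 0.05. The difference was 332 bp without ATAC-seq replicate 2 and 364.2 bp without summits in repeats.

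The same was seen in the share of genes with the summit downstream of the start. It was 28.8% and 27.4% in the ATAC-seq samples and 72.8% and 73.0% in the H3K9me2 samples, a difference of 44.8 percentage points (exact permutation p = 0.33, n = 2 per assay). ATAC-seq summits lay between -300 bp and the start at 54.8% and 59.5% of genes, whereas H3K9me2 summits lay between 100 and 500 bp downstream at 61.5% and 63.3%. In the annotation, 54.4% and 57.7% of the ATAC-seq summits were outside transcripts, 34.3% and 32.1% in exons and the rest in introns. Of the H3K9me2 summits 52.9% and 57% were in introns, 43.3% and 39.5% in exons and only 3.81% and 3.55% outside transcripts.

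**Figure D2:**
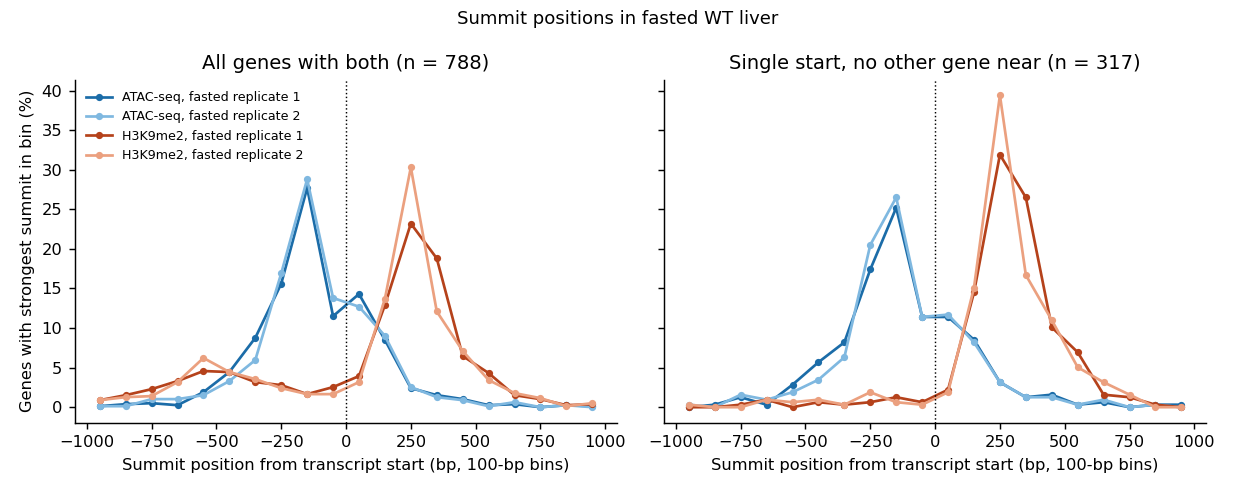
Percent of genes (y axis) whose strongest summit fell in each 100-bp bin of distance from the transcript start (x axis, bp, negative upstream) in the 4 fasted samples, at all 788 genes with both kinds of summit and at the 317 with a single start and no other gene near. ATAC-seq (blue) peaks upstream of the start and H3K9me2 (orange) downstream, and the upstream H3K9me2 shoulder of the left panel is nearly gone on the right.

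Gene by gene, positions were compared as distances from the nearest start of the gene. At the 622 of 788 genes with a single start this is also the order on the chromosome. At the others the assays can refer to different starts. On that scale, H3K9me2 of both replicates lay downstream of both ATAC-seq summits at 516 of 788 genes (65.5%). It lay upstream of both at 173 (22%) and in mixed order at 99 (12.6%). Mrpl48, with 4 starts, counted as downstream although its H3K9me2 summits lay upstream on the chromosome. The median difference in position between the kinds of summit was 396.5 bp. It was 55 bp between the ATAC-seq replicates and 51 bp between the H3K9me2 replicates at the same genes. At 10.8% of genes the positions of the kinds were within 100 bp. At 16 genes, among them Akt1s1 (an mTORC1 subunit), Phf14 and Tle4, the assays lay over 1000 bp apart. In Phf14 and Akt1s1 they fell at different annotated starts, whereas Ski, a SMAD corepressor with a single start, had ATAC-seq at -720 and -748 bp and H3K9me2 at 471 and 341 bp. The 788 genes are not independent points, since neighbouring genes share summits: they rested on 597 distinct ATAC-seq summits in each replicate and on 603 and 605 distinct H3K9me2 summits.

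Most of the upstream H3K9me2 summits were at genes with a close neighbour, 178 of 214 (83.2%) in replicate 1 and 176 of 213 (82.6%) in replicate 2. A start of another gene lay within 1000 bp at 390 of the 788 genes (49.5%), against 17% of all genes. At these 390 genes H3K9me2 lay downstream at only 54.4% and 54.9%, with lower quartiles of position at -493.8 bp and -483.8 bp. At the 317 genes with a single start and no other gene near, it lay downstream at 95.3% and 94.0%, at medians of 291 and 266 bp, while ATAC-seq lay downstream at 27.4% and 27.1%, at medians of -144 and -148 bp. The H3K9me2 summits lay downstream of both ATAC-seq summits at 281 of these 317 genes (88.6%), upstream at 18 and in mixed order at 18.

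The H3K9me2 position was similar whether the accessible site lay upstream or downstream. At the 212 isolated genes whose ATAC-seq summits were both upstream (medians -205.5 and -203 bp), H3K9me2 lay at medians of 288.5 and 262 bp. At the 68 genes whose ATAC-seq summits were both downstream (136.5 and 129 bp), it lay at 297 and 305.5 bp. The H3K9me2 medians of these groups differed by 8.5 and 43.5 bp, while the ATAC-seq medians differed by 342 and 332 bp.

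**Figure D3:**
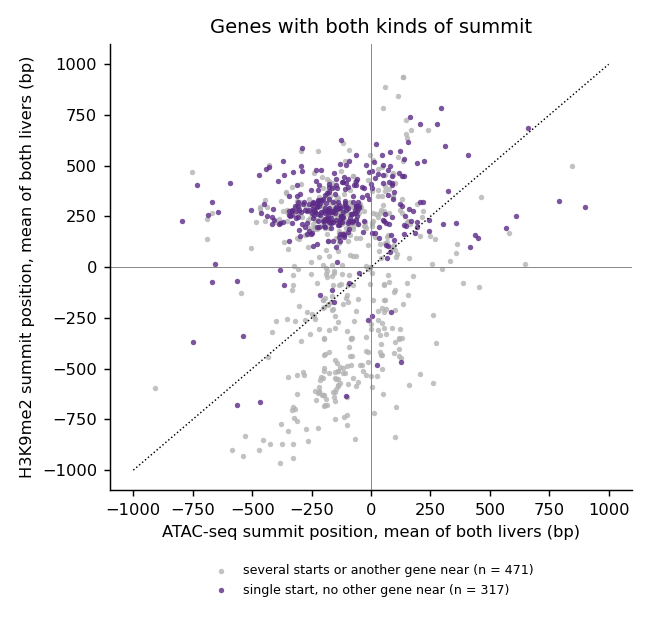
Each point is a gene with both kinds of summit, placed by the position of its ATAC-seq summit (x axis) and its H3K9me2 summit (y axis), each the mean of both replicates in bp from the transcript start. Isolated genes with a single start (purple, n = 317) form a band near 250 bp on the y axis whatever their ATAC-seq position, and most lie above the dotted line of equal positions. Axes are limited to 1000 bp on either side.

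Divergent gene pairs showed the arrangement from both sides. Among the 788 genes there were 168 pairs with a minus-strand start followed by a plus-strand start within 1000 bp, at a median gap of 259 bp. Some genes stood in more than 1 pair, such as Rad17 with Ak6 and with Taf9, so the pairs are not all distinct promoters. An ATAC-seq summit lay between the starts at 85 pairs (50.6%) in replicate 1 and 93 (55.4%) in replicate 2. An H3K9me2 summit lay there at 3 (1.79%) and 4 (2.38%). H3K9me2 summits lay downstream of both starts at 63 (37.5%) and 76 (45.2%) pairs. Since each of these genes was chosen for an H3K9me2 summit within 1000 bp, a summit not between the starts had to lie past 1 of them. Of the 79 pairs with an ATAC-seq summit between the starts in both replicates, 74 (93.7%) had no H3K9me2 summit there in either.

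Hadha and Hadhb, which encode the subunits of the mitochondrial trifunctional protein of fatty acid oxidation, are such a pair, with starts 273 bp apart on chromosome 5. The shared ATAC-seq summit lay between them, at -112 and -189 bp of Hadha. The strongest H3K9me2 summit lay 370 bp inside Hadhb in replicate 1 and 163 bp inside Hadha in replicate 2. Replicate 1 also had a weaker H3K9me2 summit inside Hadha. Cdc40, a splicing factor, and Wasf1, a regulator of actin, were 391 bp apart on chromosome 10, and their strongest H3K9me2 summits were 234 and 262 bp inside Cdc40, which had 12.5 and 12.6 TPM, and Wasf1 had 0.464 and 0.732 TPM. Replicate 1 also had a weaker H3K9me2 summit between the annotated Wasf1 starts. At Ggps1 and Arid4b, 296 bp apart on chromosome 13, they were 353 and 228 bp inside Arid4b, a chromatin regulator with 14.5 and 14.6 TPM, against 3.43 and 3.77 TPM for Ggps1, an enzyme of isoprenoid synthesis. Both replicates also had a weaker summit inside Ggps1. A summit within reach of both starts cannot be assigned to either gene.

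The summits also differed in base composition. Within 50 bp of the summit the median GC content was 57.4% in both ATAC-seq replicates and 67.3% in both H3K9me2 replicates, with a median of 6 and 9 CpG dinucleotides. Promoters of genes with both (from 250 bp upstream to 50 bp downstream of the start) were CpG-rich, with a median CpG observed-to-expected ratio of 0.835 over 818 promoters of 665 genes, against 0.547 for all promoters and 0.271 for genes without any summit. GGGCGG occurred on either strand in 67.8% of them and in 45.2% of all promoters, and CCGGAAG in 20.9% and 11.3%. Promoters with H3K9me2 and no ATAC-seq held these motifs in 65.2% and 21.9%. The CCAAT box of NF-Y occurred in 45.8%, against 33.4% of promoters with H3K9me2 and no ATAC-seq and 38.3% of all promoters, so it was more frequent at promoters with ATAC-seq than at those with H3K9me2 alone. The CREB site TGACGTCA occurred in 4.16% against 2.23% of all promoters, the TATA box TATAAA in 5.75% against 12.3%, the USF E-box CACGTG in 9.05% against 7.95% and the NRF1 site GCATGCGC in 5.01% against 3.45%. At promoters with H3K9me2 and no ATAC-seq these were 3.39%, 7.1%, 11.2% and 6.45%. These shares describe letters in the window and not binding.

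The genes with the strongest summits in all 4 samples, ranked by their lowest score percentile within a sample, were Tardbp, Phf14, Map7d1, Dgat2, Aldh4a1, Ldha, Reep6, Rbm15, Cdc40, Wasf1, Zfp407 and Nr1d2. Tardbp, which encodes the RNA-binding protein TDP-43, had ATAC-seq summits at 85 and 56 bp and H3K9me2 summits at 461 and 500 bp, in its intron. The sequence of that H3K9me2 window held the GC box in each orientation.
Tardbp H3K9me2 (replicate 2), chr4:148626456-148626536, minus strand: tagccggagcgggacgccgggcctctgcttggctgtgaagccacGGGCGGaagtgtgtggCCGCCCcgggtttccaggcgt
In Dgat2 ATAC-seq lay at -262 and -234 bp and H3K9me2 at 301 and 312 bp, with 390 and 418 TPM. In Nr1d2, the circadian repressor REV-ERB beta, ATAC-seq lay at -145 and -155 bp and H3K9me2 at 314 and 260 bp. Both genes thus carried the common order, with replicates within 54 bp. Aldh4a1, a mitochondrial enzyme of proline breakdown, had ATAC-seq at 33 and 64 bp and H3K9me2 at 515 and 492 bp. In Ldha ATAC-seq at 471 and 455 bp lay farther downstream than H3K9me2 at 360 and 333 bp. Rbm15, an RNA-binding protein of the m6A methylation machinery, was not reproducible in ATAC-seq, with -127 and 184 bp, but was in H3K9me2, with 455 and 462 bp. In Reep6, a protein of the endoplasmic reticulum, H3K9me2 differed between replicates, with 710 and 298 bp.

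Among genes with a single start and replicates within 100 bp of each other in both assays, 314 in all, the distance between the kinds of summit ran up to 989 bp in Brpf1, a subunit of the MOZ acetyltransferase complex. Its ATAC-seq summits lay at -692 and -644 bp and its H3K9me2 summits at 307 and 335 bp. The next were Rab40c with 944 bp, Pknox1 with 924 bp and Slc19a2 with 893 bp, and in all 4 genes ATAC-seq lay upstream and H3K9me2 downstream of the start. The nearest were Dctn4 with 15 bp, Trip13 with 20 bp, Zfp712 with 22 bp and Fip1l1 with 26 bp. In Trip13, a checkpoint ATPase with 0.246 and 0.353 TPM, all 4 summits lay upstream, at -163 and -165 bp for ATAC-seq and -120 and -168 bp for H3K9me2. The divergent gene Brd9 starts 44 bp away, and the same summits lay inside it, at 102 and 104 bp and at 59 and 107 bp. In Fip1l1, a polyadenylation factor, all 4 summits lay downstream, at 176 and 101 bp and at 189 and 139 bp. The H3K9me2 summits of Trip13 and Zfp712 were weak, at percentiles of 10 and 16.7 in replicate 1.

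**Figure D4:**
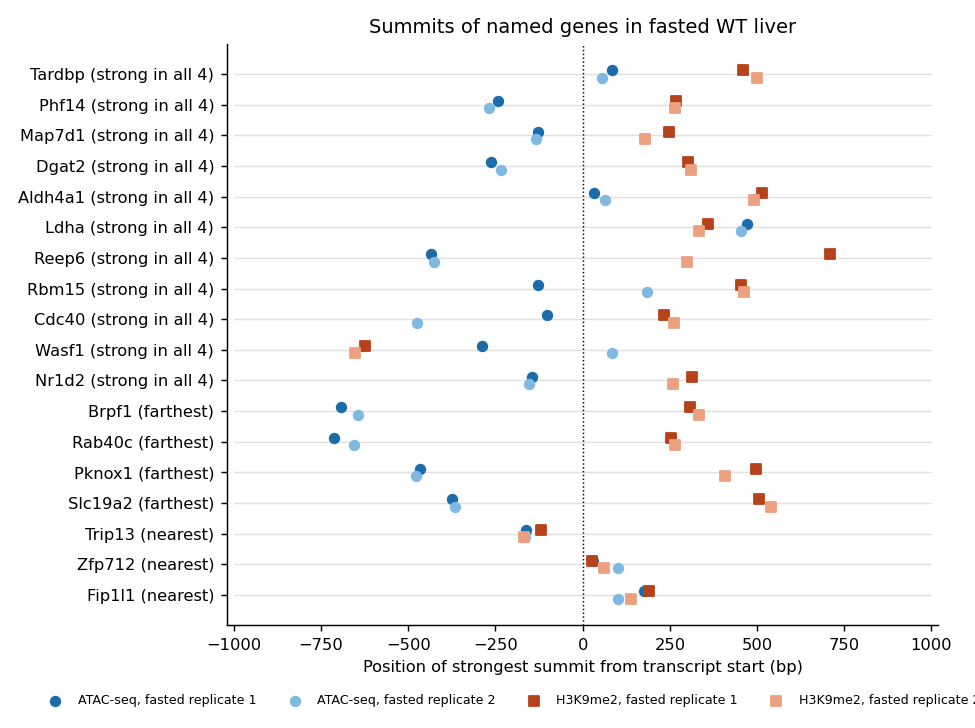
Positions of the strongest ATAC-seq (blue circles) and H3K9me2 (orange squares) summits from the transcript start (x axis, bp) in each fasted replicate, for genes strong in all 4 samples and for genes with the summits farthest apart or nearest. Zfp407 and Dctn4 are not drawn, and the H3K9me2 summits of Phf14 lie at another start of the gene than its ATAC-seq summits. In Brpf1, Rab40c, Pknox1 and Slc19a2 the kinds lie on opposite sides of the start. In Trip13 all 4 summits lie together at -120 to -168 bp, inside the neighbouring gene Brd9.

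Gene groups were read against the 4.36% of all genes with ATAC-seq and the 29.1% with H3K9me2. Most members of the housekeeping and metabolic groups had RNA, and among genes with RNA the shares were 8.29% and 63.4%. Against these, the 6 housekeeping groups below ran from 7.69% to 13.5% in ATAC-seq and from 72.2% to 94.2% in H3K9me2. Their members were counted without a test. Housekeeping groups had H3K9me2 at most starts and ATAC-seq at a minority: 81 of 86 cytosolic ribosomal protein genes had H3K9me2 in both replicates and 8 had ATAC-seq, all 8 with both. For the respiratory chain the counts were 84 and 13 of 96, again with all 13 having both, and for splicing factors 60 and 8 of 67, of which 5 had both. Among them, Rpl19 had ATAC-seq at -25 and -94 bp and H3K9me2 at 317 and 301 bp, Atp5l had -44 and -72 bp and 293 and 260 bp, and Hnrnpc had -276 and -179 bp and 301 and 306 bp. Other members varied more, such as Rps29 with H3K9me2 at 362 and 424 bp, Rps27a at 327 and 471 bp, and Uqcrh at -663 and 270 bp and Hnrnpa0 at 362 and -632 bp, where the replicates fell on opposite sides of the start. Mitochondrial ribosomal proteins had H3K9me2 at 64, ATAC-seq at 6 and both at 4 of 78 genes, proteasome subunits at 39, 4 and 3 of 48, and translation factors at 52, 6 and 6 of 72.

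Among metabolic and signalling groups the H3K9me2 share ran from 50% in cholesterol synthesis to 93.5% in fatty acid oxidation, and the ATAC-seq share from 9.09% to 22.2%. Among genes with RNA the shares were 63.4% and 8.29%, and lipogenic genes, with 63.6% and 9.09%, lay near these. Of 31 genes of fatty acid oxidation, 29 had H3K9me2 and 4 had ATAC-seq, namely Acadm, Etfdh, Hadha and Hadhb, all with both. Acadm, the medium-chain acyl-CoA dehydrogenase, had ATAC-seq at 2 and -16 bp and H3K9me2 at 548 and 392 bp. Of 18 gluconeogenic genes and regulators, 14 and 4 had the summits, the 4 being Creb1, Creb3l3, Mdh1 and Mdh2. Of 22 lipogenic genes, 14 had H3K9me2 and 2, Dgat2 and Acss2, had both. Acss2, which makes acetyl-CoA from acetate, had ATAC-seq at -157 and -196 bp and H3K9me2 at 302 and 521 bp. In insulin and mTOR signalling, 25 of 27 had H3K9me2 and 5 had both: Tsc1, Gsk3a, Gsk3b, Akt1s1 and Mlst8. Cholesterol synthesis had H3K9me2 at 12 of 24 and ATAC-seq at 3, with both at Ggps1 and Idi1. Of 26 enzymes and readers of H3K9 methylation, 21 had H3K9me2 and 4 had ATAC-seq, and the demethylases Kdm3a, Kdm4a and Kdm4d had both. The H3K9me2 summits counted for Kdm4d, a gene without an RNA value, lay inside its divergent neighbour Cwc15, at 260 and 289 bp. Neither replicate had H3K9me2 on the Kdm4d side.

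Liver identity genes are expressed, so they too were read against genes with RNA, of which 63.4% had H3K9me2 and 8.29% had ATAC-seq. Of 20 liver transcription factors 19 had H3K9me2 and 1, the nuclear receptor Esrra, had both, and of 30 genes of secreted plasma proteins 19 (63.3%) had H3K9me2, near that background, and 1 (3.33%) had both. That gene was Alb, the most abundant hepatocyte transcript with 71100 TPM in each refed library, whose ATAC-seq summits lay at -31 and -222 bp and whose H3K9me2 summits lay at 564 and 686 bp. Of 8 hepatocyte markers 6 had H3K9me2. No endothelial (5), Kupffer cell (5), lymphocyte (4) or stellate cell (4) marker had either kind of summit in both replicates, and of 4 cholangiocyte markers 1 had H3K9me2. All the endothelial, Kupffer cell and stellate cell markers had RNA of at least 1 TPM, so they stood below the 63.4% of genes with RNA. No lymphocyte marker reached 1 TPM. Silent families were at 0 as well: 0 of 1476 olfactory and vomeronasal receptor genes, 0 of 39 Hox genes and 0 of 58 clustered protocadherin genes had either kind in both replicates. Zinc finger genes named Zfp had H3K9me2 at 169 of 401, ATAC-seq at 26 and both at 15, and replication histone genes had 14, 7 and 3 of 67. Chromatin regulators of the Arid, Kdm5, Hdac, Smarca and Setd families had 26, 7 and 6 of 42, and small nucleolar and microRNA genes 90, 10 and 6 of 1158.

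**Figure D5:**
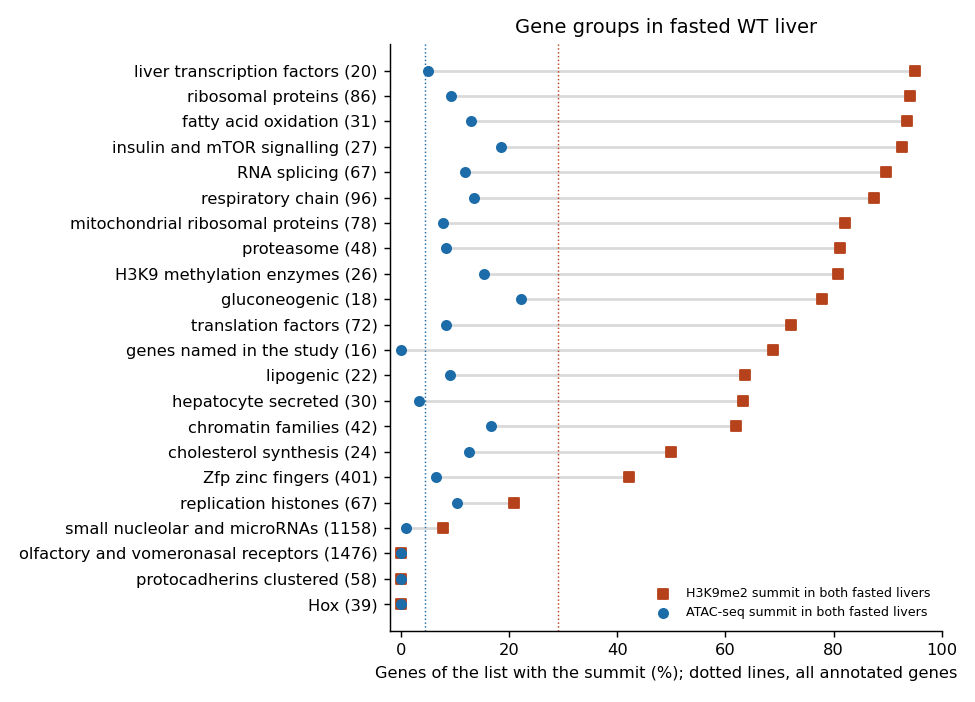
Percent of genes of each group (number of genes in parentheses) with an H3K9me2 summit (orange squares) and an ATAC-seq summit (blue circles) in both fasted replicates, for groups of at least 15 genes; dotted lines give 29.1% and 4.36%, the shares over all genes. Among genes with RNA these shares are 63.4% and 8.29%, not drawn. H3K9me2 ranges from 0% in Hox, protocadherin and receptor genes to 95% in liver transcription factors, and ATAC-seq stays at or below 22.2%.

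Among a list of 16 genes taken mainly from those the study names, none had ATAC-seq at the start in both fasted replicates, and 11 (68.8%) had H3K9me2 in both, against 8.29% and 63.4% of genes with RNA. The difference from those shares was not tested. The list entered Acaa1 as Acaa1a and Acaa1b, left out Gk, and held Foxo1, which the text of the study does not name. Fasn (fatty acid synthase) had H3K9me2 at 761 and 739 bp, Acly (ATP citrate lyase) at 332 and 380 bp, and Foxo1 at 381 and 329 bp. Acot1, an acyl-CoA thioesterase, had it at 251 and 261 bp. Scd1, G6pc and Pck1 had it in replicate 2 alone, at 444, 689 and 599 bp. Acaca and Ppargc1a had no summit in any of the 4 samples. The only ATAC-seq summit of the 16 was at Acaa1a, at -138 bp in replicate 2. In Jmjd1c itself H3K9me2 lay at 474 and 461 bp of a start, at a percentile of 0.28 in replicate 1, and in Usf1 at -62 and -73 bp.

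Genes with ATAC-seq in both replicates and H3K9me2 in neither numbered 39 and differed from the 788. They were seldom expressed, with RNA of at least 1 TPM in 12 of 39 (30.8%), and their median CpG ratio was 0.639. Their ATAC-seq summits lay at medians of 37 and 48 bp and were in repeats at 12.8% and 10.3%, against 0.635% and 0.761% at the 788 genes. The 6 with the strongest summits were Gm20594, Mir101c, Lrr1, Tas2r134, Gm13288 and Slc27a1. Lrr1 had summits at -77 and -83 bp and Slc27a1, a fatty acid transporter, at -333 and -318 bp. Read through after their values were seen, the 39 also held Ifnz with 8 neighbouring predicted genes of the Gm13275 to Gm13290 series, and the cell cycle genes Brca1, Ccne1, Cenpu, Gins2 and Mad2l1.

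The strongest H3K9me2 summits without ATAC-seq in either replicate were at highly expressed genes. Hsp90aa1, a chaperone with 517 and 513 TPM, had H3K9me2 at 353 and 325 bp, at percentiles of 99.9 and 100. Sqstm1, the autophagy receptor p62, had it at 300 and 272 bp, Naca at 566 and 587 bp, Arf4 at 410 and 293 bp and Wbp1l at 294 and 295 bp. Brd2, a bromodomain protein, was the exception with -855 bp in both. Over all 5195 such genes H3K9me2 lay at medians of 261 and 244 bp and downstream at 83.0% and 83.2%, against 236 and 219.5 bp and 72.8% and 73.0% at the 788 genes.

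Away from starts the kinds of summit seldom met, but few H3K9me2 summits were there to be met. Of these summits 92.0% and 83.5% lay within 1000 bp of a start, and no expected share was computed. Within 1000 bp of an ATAC-seq summit near a start, H3K9me2 was found at 67.4% and 94.8% of 2700 summits of ATAC-seq replicate 1 for the 2 H3K9me2 replicates, and at 67.0% and 95% of 1165 summits of replicate 2. Elsewhere in the genome the shares were 2.3% and 9.01% of 2520 summits and 0.356% and 1.19% of 6467 summits. Outside repeats they were 3.65% and 13.8% of 1560 and 4.25% and 13.5% of 541, similar for both ATAC-seq replicates. In repeats, 0 of the 5926 summits of ATAC-seq replicate 2 had H3K9me2 of replicate 1 within 1000 bp. Since ChIP-seq reads placed at several sites were dropped, this does not show that the mark was absent from repeats.

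The 788 genes were looked up in the refed livers, whose samples played no part in choosing them. H3K9me2 of refed replicate 2 was found at 761 (96.6%), against 35.1% of all genes and 75.2% of genes with RNA, at a median of 253 bp. The 5195 genes with H3K9me2 and no ATAC-seq in the fasted livers were alike, with 96.1% at a median of 272 bp. H3K9me2 of refed replicate 1 stood apart, with a summit at 61 genes in the whole genome and at 1 of the 788. ATAC-seq was found at 83.2% and 69.0% in the refed WT replicates and at 46.7% and 9.9% in the refed JMJD1C-LKO replicates, against 9.94%, 6.24%, 4.06% and 0.886% of all genes in the same samples. At the 39 genes with fasted ATAC-seq and no H3K9me2 the shares were 89.7%, 64.1%, 64.1% and 33.3%. High shares in refed liver were thus not particular to genes with both kinds of summit. The knockout replicates lay far apart, and so did the lengths of their lists. At the 788 genes median ATAC-seq positions were -142.5 and -146.5 bp in refed WT liver, within 11 bp of the fasted values.

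On the X chromosome the summits were rare. Of 1126 genes 7 (0.622%) had ATAC-seq, 112 (9.95%) had H3K9me2 and 1, Yipf6, had both, against 4.54%, 30.1% and 3.15% of autosomal genes. Among genes with RNA, 1.39% of 287 X-linked genes had ATAC-seq and 34.5% had H3K9me2 in both replicates, against 8.48% and 64.1% on autosomes. In H3K9me2 replicate 2 alone the shares were 83.3% and 87.4%, and in replicate 1 they were 34.5% and 64.5%. The gap was thus narrow in the longer H3K9me2 list and wide in the shorter.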

How the data were processed

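Nuclei of fasted WT livers were profiled by ATAC-seq (n = 2) and H3K9me2 ChIP-seq (n = 2, each against input). For mm10 alignment, BWA served for ATAC-seq and Bowtie2 for ChIP-seq in the hands of the authors, keeping uniquely placed reads in ChIP-seq, a filter not stated for ATAC-seq. They called peaks per sample with MACS2 (2.1.1 per the labels) at a q-value of 0.05, with separate fold enrichment floors for each assay, and deposited summit lists, 1 base per peak with its -log10 q-value. The aligners, filters and floors differ between the assays, so repeat content and list length cannot be compared between them as biology. Whether transposase offsets were corrected is not given in the sources used here; such an offset moves a summit by a few bases. All samples carry the same treatment text, so fasted was read from the F of their titles and the peak names in the files. The authors also deposited estimated counts per transcript for refed RNA-seq (51387300 and 51265128 in the WT libraries), which were converted here to TPM with exon lengths for 24682 of 24994 transcripts, and a list of their own comparison (p, FDR and fold change), which was not used.

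Starts were those of 45756 curated RefSeq transcripts of 26180 genes on 21 chromosomes of GRCm38.p6, the same assembly as mm10. A gene was called when a summit lay within 1000 bp. With several summits the highest score was used, and positions were taken from the nearest start of that gene and signed by strand. Scores were ranked within a sample only. Shares carry 95% Wilson intervals, which cover counting error only, since the depth of each library is unknown. Medians and downstream shares were compared by exact permutation over samples, two-sided. Positions were tested on simulated data and planted summits were recovered. Promoter sequences came from RefSeq (19528 genes matched). Named genes were the 12 with both kinds of summit and the highest lowest score percentile, the 6 strongest with 1 kind alone, the 4 farthest and 4 nearest, members of gene lists with both, and the list taken mainly from genes the study names. Members and lists were chosen with earlier results of these data known, and the histone list was respelled after the annotation was read. Alternatives covered the window, the threshold, list length, replicates, repeats and gene classes; 1 more, genes with RNA only, was chosen after seeing the data. Python 3.11.15, numpy 2.4.6, pandas 2.3.3, scipy 1.17.1 and matplotlib 3.10.9 were used.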

Additional observations from a re-analysis of the deposited data

How the results depend on the processing

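The positional difference kept its sign under every alternative run, from 332 to 404 bp, and the downstream difference ran from 37.5 to 62.7 percentage points. Counts and shares moved more. With a -log10 q of at least 5, ATAC-seq genes numbered 619 and genes with both 413, or 5.77% of H3K9me2 genes. With the 5220 strongest summits of each sample, H3K9me2 genes numbered 4686 and genes with both 470, or 44.3% of ATAC-seq genes. Where either replicate sufficed, ATAC-seq genes numbered 3442 and genes with both 3295, which were 95.7% of ATAC-seq and 29.4% of H3K9me2 genes. Without genes near another start they numbered 639 and 398. Leaving out 1 library at a time gave 1141 to 3147 ATAC-seq genes, 789 to 2215 genes with both, 69.1% to 96.5% of ATAC-seq genes and 9.85% to 29.1% of H3K9me2 genes; the highest counts came without ATAC-seq replicate 2 and the highest share of ATAC-seq genes without H3K9me2 replicate 1. The causes were not tested. Nothing in the labels says that a number marks a shared liver, and the peak names in the files carry other numbers, so the samples were not treated as paired; with the replicate block the differences were 363.5 bp and 44.8 points (exact sign-flip permutation p = 0.5 for each, the smallest that 2 pairs allow). Summit lists give neither depth nor peak width, which limits any statement on absent summits.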
